A study of Mus musculus with 12 samples.

Results

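Heat shock proteins and their relatives are molecular chaperones, proteins that bind unfolded or newly made proteins and help them fold, reach their organelle or be degraded. Their genes were read here from arrays of mouse spinal cord as the probes paired with a single gene whose symbol begins with Dnaja, Dnajb, Dnajc or Hsp90, or with Hspa, Hspb, Hspd, Hspe, Hsph or Cct and a digit, and where a gene had several such probes the one with the highest mean over all arrays stood for it. This gave 79 of the 18194 genes with a probe of their own, in 9 classes: 8 small heat shock proteins (small HSPs), 11 HSP70s, 3 HSP110s, 2 HSP90s, 2 mitochondrial chaperonin genes, 9 genes named for subunits of the cytosolic chaperonin TRiC, and 4, 13 and 27 J-domain proteins of types A, B and C. Of the 79 genes, 62 had a mean signal over 50, the level the study used as its limit of expression, in at least 1 group and were tested. The remaining 17 had a highest group mean of 1.57 to 47.3 and received no test: they were Hspa12b and Hspa1l among the HSP70s, Hspb3, Hspb7 and Hspb9 among the small HSPs, Cct6b and Cct8l1, and Dnajb3, Dnajb5, Dnajb7, Dnajb8, Dnajb12, Dnajb13, Dnajc5b, Dnajc5g, Dnajc22 and Dnajc25. Dnajc19 had only a probe shared with another gene, and Hsp90ab1 was not analysed here.

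Groups of female C57BL/6 mice (C57BL/6J in the study's methods) were compared, with 3 mice and 3 arrays in each: aged injured (15 to 18 months), young injured (2 to 3 months), aged intact (15 to 18 months) and young intact (2 to 3 months). Injured mice received a contusion of the exposed cord at the ninth thoracic level (Th9) from an impactor, after removal of the overlying bone, and their cords were taken 9 days later. Intact mice were naive, so laminectomy and contusion cannot be told apart, and all mice were perfused with heparinized saline before the Th9 segment was frozen. A segment is a mixture of cells, in which fewer cells of a type and less RNA per cell cannot be told apart. Values are MAS 5.0 signals, a linear measure of hybridization that the authors had scaled to a trimmed mean of 100 on each array.

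Chaperones work in a division of labour. HSP70s bind short unfolded stretches in a cycle driven by ATP, J-domain proteins deliver clients to them and start that cycle, HSP110s exchange their nucleotide, and HSP90s act on clients that are closer to their folded state. Small HSPs hold unfolded proteins without using ATP, TRiC and the mitochondrial chaperonin enclose a client in a chamber, and the endoplasmic reticulum (ER) and the mitochondrion have HSP70s and HSP90s of their own. Cytosolic heat shock genes are known to be induced through HSF1, a transcription factor that binds heat shock elements, and ER chaperones through ATF6 and XBP1, whose sites include the ER stress response element.

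Sequences before the start sites were examined because Hspa5 and Hsp90b1, members of the ER, rose after SCI (spinal cord injury) in aged mice while Hsph1 and Hspa1b, members of the cytosol, fell, as given below. RefSeq windows (GRCm38.p6, 250 bases before and 50 bases after each start) were found for 65 of the 79 genes. The ER stress response element, searched on both strands as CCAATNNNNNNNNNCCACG, was in the windows of 3 of these 65 genes (4.62%), against 37 of all 27025 genes (0.137%). The 3 genes were Hspa5, Hsp90b1 and Dnajc3, which encode the ER's HSP70 (BiP), its HSP90 (GRP94) and a J-domain partner of BiP (P58IPK), and the bases before their starts are printed with the matches in capitals, on the strand of each gene.
Hspa5, chr2:34771840-34772089, plus strand: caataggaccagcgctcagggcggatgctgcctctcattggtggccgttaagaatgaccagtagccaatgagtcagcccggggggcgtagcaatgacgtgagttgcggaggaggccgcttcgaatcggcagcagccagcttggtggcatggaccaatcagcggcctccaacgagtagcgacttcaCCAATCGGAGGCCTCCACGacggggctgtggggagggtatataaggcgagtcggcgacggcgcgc
Hsp90b1, chr10:86705445-86705694, minus strand: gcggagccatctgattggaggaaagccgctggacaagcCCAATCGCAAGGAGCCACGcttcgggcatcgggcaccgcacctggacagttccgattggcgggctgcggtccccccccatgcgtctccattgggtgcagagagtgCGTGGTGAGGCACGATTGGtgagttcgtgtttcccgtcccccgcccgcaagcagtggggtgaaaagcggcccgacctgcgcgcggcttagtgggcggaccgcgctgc
Dnajc3, chr14:118937682-118937931, plus strand: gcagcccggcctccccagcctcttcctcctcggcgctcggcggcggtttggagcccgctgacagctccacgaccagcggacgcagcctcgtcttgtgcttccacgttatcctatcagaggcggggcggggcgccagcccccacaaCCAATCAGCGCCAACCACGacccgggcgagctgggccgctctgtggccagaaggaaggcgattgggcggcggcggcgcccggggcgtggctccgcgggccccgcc
The second capital stretch of Hsp90b1 is a match on the opposite strand. Dnajb11 and Dnajb9, which encode other J-domain partners of BiP in the ER, had no such letters in their windows.

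The heat shock element, searched on both strands as GAANNTTCNNGAA, was in the windows of 4 of 65 members (6.15%), Hspd1, Hspe1, Dnajb6 and Hsph1, against 179 of 27025 genes (0.662%), and did not overlap the ER element in any of them. The match of Hsph1 lay after its start, 15 or 36 bases on by the start site used. None was found in the windows of 8 HSP70s, Hspa1a and Hspa1b among them, or of 7 small HSPs, and Hsp90aa1 had no window. Hspd1 (HSP60) and Hspe1 (HSP10), the 2 parts of the mitochondrial chaperonin, lie head to head on chromosome 1 with 215 bases between their starts. These bases are shown, on the strand of Hspe1, because both genes share the 2 overlapping matches marked in capitals.
Hspd1 and Hspe1, chr1:55087933-55088147, plus strand: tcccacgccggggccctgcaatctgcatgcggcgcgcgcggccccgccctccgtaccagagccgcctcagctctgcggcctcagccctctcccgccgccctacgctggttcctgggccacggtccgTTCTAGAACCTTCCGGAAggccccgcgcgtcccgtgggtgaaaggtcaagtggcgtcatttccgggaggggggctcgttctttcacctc
A match is a description of letters in this window and not of a bound site.

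The inducible cytosolic HSP70s are encoded by Hspa1a and Hspa1b, neighbouring genes on chromosome 17 that are nearly identical. The bases before their starts are shown because the signals of both genes fell with injury, as given below. Of 250 letters, 3 differ (capitals).
Hspa1a, chr17:34972157-34972406, minus strand: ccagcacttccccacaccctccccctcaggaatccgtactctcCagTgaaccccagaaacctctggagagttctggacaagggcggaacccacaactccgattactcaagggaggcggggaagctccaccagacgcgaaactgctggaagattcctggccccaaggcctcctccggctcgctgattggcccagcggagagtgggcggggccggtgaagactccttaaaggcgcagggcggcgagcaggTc
Hspa1b, chr17:34959239-34959488, minus strand: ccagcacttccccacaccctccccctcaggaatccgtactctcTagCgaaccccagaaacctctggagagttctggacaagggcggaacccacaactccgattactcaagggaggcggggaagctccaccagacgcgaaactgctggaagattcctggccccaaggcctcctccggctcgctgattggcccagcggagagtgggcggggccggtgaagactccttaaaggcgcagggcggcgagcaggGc
The genes share 98.8% of these letters. Values of Hspa1a and Hspa1b are given by the symbol of the probe, and which of the genes a signal came from is uncertain, since probe sequences were not compared here.

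Signals over 50 made up 35.1% to 36.7% of probes on injured arrays and 35.4% to 35.6% on intact arrays, and the median signal was 21.5 to 23.9 on injured arrays and 20.4 to 21.6 on intact arrays. Aged injured replicate 1 stood apart, being the farthest of its group from the group median for 50% of the 62 genes and 54.5% of all genes tested, so the injury responses of aged mice that it moved most are also given without it. The summed signal of 13 neuron markers was 1619, 11197 and 7147 in aged injured cords, against 23762, 23884 and 23246 in aged intact cords, and 7758, 12089 and 10229 in young injured cords, against 23592, 22728 and 23819 in young intact cords. Of the 12 neuron markers tested, 12 fell with injury in aged mice and 7 in young mice (12 in young mice without aged injured replicate 1). Macrophage and microglia markers rose with injury (12 of 12 in each age), as did proliferation markers (9 of 9 in each age). Skeletal muscle and red cell markers were near background, with 1 of 10 and 0 of 3 genes over 50 in any group.

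With injury, more chaperone genes of the cord fell than rose. Hspb1 and Hspb6, small HSPs, rose in both ages, Hspa4l, Hsph1 and Hspa12a, members of the HSP110 and HSP70 classes, fell in both, and Hspa5 and Hsp90b1 of the ER rose in aged mice. In aged mice, 15 of 62 genes were higher and 33 lower in injured than in intact cord, beside 35.6% higher and 39.9% lower of 10511 genes tested. In young mice, 12 were higher and 33 lower, beside 33.9% higher and 34.1% lower of all genes. The share of chaperone genes that fell was 53.2% in each age, and the median log2 fold change was -0.22 in aged and -0.23 in young mice, against -0.04 and -0.01 over all genes tested (aged and young). In both ages 10 genes rose and 30 fell, beside 30.0% and 31.6% of all genes, and none was called in opposite directions. The 2 ages' responses come from separate mice. Where injured and intact cords of a gene are said below not to overlap, this describes the gene and adds no support to its call. The share of all genes without such overlap was not counted.

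**Figure D1:**
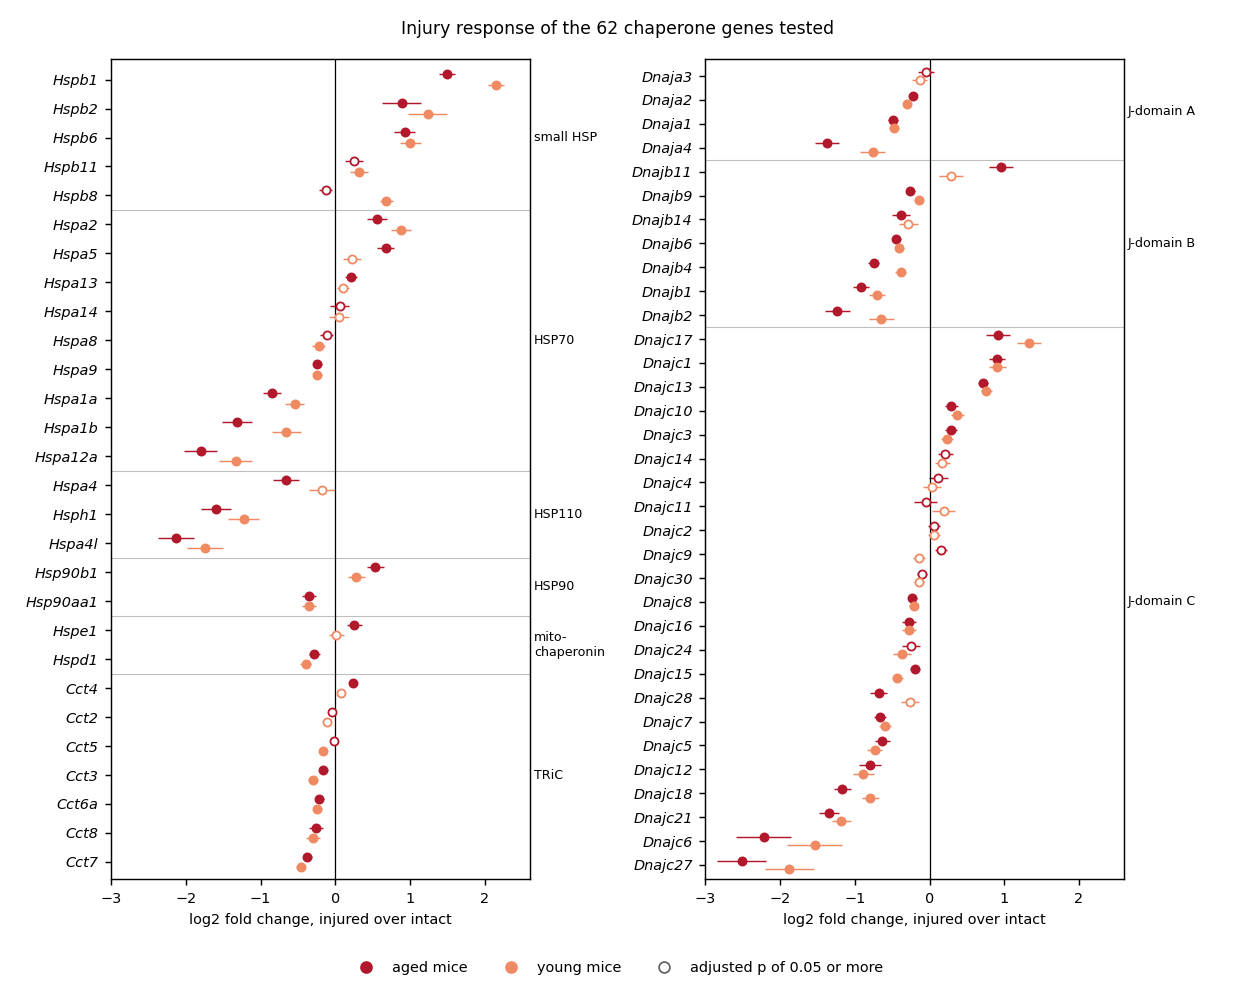
Log2 fold change of signal, injured over intact, of the 62 chaperone genes tested (horizontal axis), by class and gene (vertical axis), in aged mice (dark red, upper point of each pair) and young mice (orange, lower point), with the standard error of the limma fit as bars and open points for an adjusted p of 0.05 or more. Small HSPs lie to the right, up to 2.15 for Hspb1 in young mice, while the HSP110s and several J-domain proteins lie to the left, down to -2.52 for Dnajc27 in aged mice. Points of Hspb2, Hspb6 and Dnajc28 include groups with a mean signal under 50 and do not measure a fold.

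Small HSPs, counted here by the symbol Hspb and so without Cryab, which is given below, were the class that rose. All 5 tested genes were higher in injured than in intact cord of young mice and 3 of 5 in aged mice, and none was called lower. Of all genes, 33.9% were higher in young and 35.6% in aged mice. The class medians were 0.89 in aged and 1.00 in young mice on the log2 scale. Hspb1 encodes HSP25 (HSP27 in humans), which binds actin as well as unfolded proteins and is known to be made by reactive astrocytes and injured neurons. Signals of Hspb1 were 1444, 1561 and 1384 in aged injured cords, against 560.3, 535 and 469 in aged intact cords, and 1994, 1829 and 2391 in young injured cords, against 474, 497 and 426 in young intact cords. The injured and intact cords did not overlap in either age. As log2 fold changes this was 1.49 in aged mice (standard error 0.11, adjusted p = 6.74e-07) and 2.15 in young mice (standard error 0.11, adjusted p = 6.04e-08).

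Hspb6 encodes HSP20, a small HSP abundant in muscle. Hspb6 gave 83.1, 77.3 and 102 in aged injured cords, against 47.2, 45.9 and 44.0 in aged intact cords, and 113, 91.8 and 128 in young injured cords, against 55.8, 55.5 and 53.0 in young intact cords. Since aged intact cord lay under 50, its rise in aged mice is given as at least 1.75-fold (adjusted p = 1.08e-04), and in young mice the log2 fold change was 1.00 (adjusted p = 9.00e-05). Hspb2, another small HSP of muscle, had 50.5, 34.7 and 63.2 in aged injured, 92.4, 77.9 and 56.8 in young injured, 29.6, 26.6 and 22.2 in aged intact and 26.7, 40.4 and 29.0 in young intact cords. It was called higher in both ages, by at least 1.51-fold in young mice, with no fold in aged mice because both means lay under 50. Of 5 smooth muscle and pericyte markers tested, 4 rose in each age, and the summed signal of the 8 markers was 1798 to 2422 in aged injured cords, against 1050 to 1201 in aged intact cords, and 1578 to 1944 in young injured cords, against 951 to 1041 in young intact cords. Their part in the rise of Hspb2 and Hspb6 was not tested.

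Hspb8, which encodes HSP22, a partner of the co-chaperone BAG3 in the removal of unfolded proteins by autophagy, rose in young mice only by the test. The signal of Hspb8 was 238, 278 and 264 in aged injured cords, against 302, 272 and 278 in aged intact cords, and 451, 439 and 468 in young injured cords, against 299, 298 and 251 in young intact cords. All young injured cords lay above all young intact cords, while aged injured and aged intact cords overlapped. In aged mice the log2 fold change was -0.13 (standard error 0.09, adjusted p = 0.194), and in young mice it was 0.68 (standard error 0.09, adjusted p = 6.36e-05). Hspb11, a small protein of cilia, was called in young mice (log2 fold change 0.32, adjusted p = 0.0362) and had a log2 fold change of 0.25 in aged mice (adjusted p = 0.0822). Bag3, the partner of HSPB8 and itself a target of HSF1, rose in both ages, with group means of 179 in aged injured, 175 in young injured, 136 in aged intact and 121 in young intact cords and log2 fold changes of 0.39 (adjusted p = 0.0062) in aged and 0.53 (adjusted p = 0.0014) in young mice. Cryab, the small HSP alpha-B-crystallin, had group means of 2094, 2904, 2899 and 3074 in the same order of groups, and fell with injury in aged mice (log2 fold change -0.49, adjusted p = 0.0043), with a log2 fold change of -0.08 in young mice (adjusted p = 0.58). Without aged injured replicate 1 the log2 fold change of Cryab in aged mice was -0.305, and it was still called lower.

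**Figure D2:**
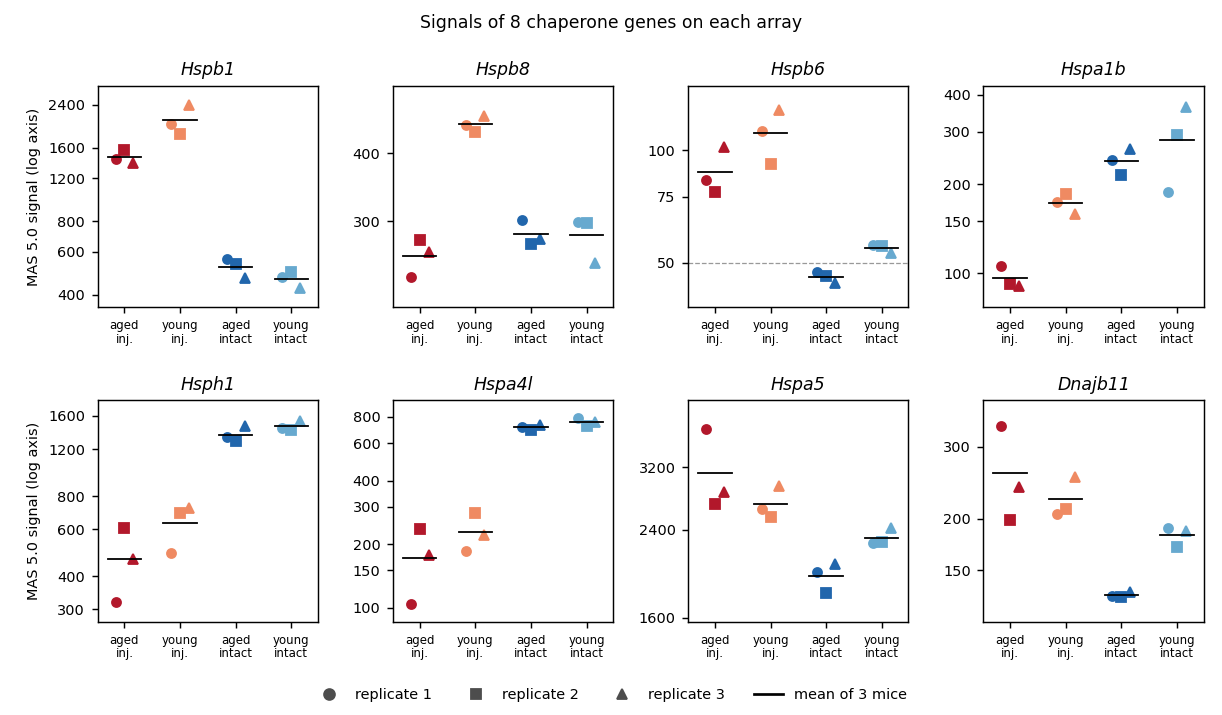
MAS 5.0 signal (vertical axes, log scale, each with its own range) of 8 chaperone genes on each of 12 arrays, for aged injured, young injured, aged intact and young intact cords, with 1 point per mouse (symbol for the replicate number), a bar for the mean of 3 mice and a dashed line at 50 where it lies in range. Hspb1 lies at 1385 to 2391 in all injured cords and at 427 to 560 in all intact cords, while Hspb8 lies at 439 to 467.5 in young injured cords and at 238 to 302 in all others, and aged injured replicate 1 is the lowest array for Hsph1 and Hspa4l and the highest for Hspa5 and Dnajb11.

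HSP110s, the nucleotide exchange factors of HSP70, fell most as a class: 3 of 3 were lower in aged mice and 2 of 3 in young mice, with medians of -1.60 and -1.23. Of all genes, 39.9% were lower in aged and 34.1% in young mice. Hspa4l encodes APG-1, an HSP110 of the cytosol. Hspa4l measured 104, 236 and 178 in aged injured cords, against 715, 695 and 731 in aged intact cords, and 185, 279.7 and 222 in young injured cords, against 787, 728 and 757 in young intact cords. Fitted log2 fold changes were -2.13 in aged mice (standard error 0.24, adjusted p = 1.75e-05) and -1.75 in young mice (standard error 0.24, adjusted p = 1.01e-04). Hsph1 encodes HSP105, the HSP110 that cells make more of after heat. Hsph1 had signals of 320.2, 609 and 465 in aged injured cords, against 1332, 1287 and 1462 in aged intact cords, and 489.8, 692 and 722 in young injured cords, against 1442, 1418 and 1537 in young intact cords. Its log2 fold changes were -1.60 in aged mice (standard error 0.20, adjusted p = 4.12e-05) and -1.23 in young mice (standard error 0.20, adjusted p = 3.59e-04). No injured cord reached the lowest intact cord of its age for either gene. In aged mice the log2 fold changes without aged injured replicate 1 were -1.80 for Hspa4l and -1.35 for Hsph1.

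Hspa4 encodes APG-2, the other member, and its probes disagreed. Signals of Hspa4 were 458, 638 and 436 in aged injured cords, against 780.3, 782 and 826 in aged intact cords, and 472, 752 and 541 in young injured cords, against 612, 664 and 689 in young intact cords. It was called lower in aged mice (log2 fold change -0.66, adjusted p = 0.00427), and in young mice the injured cords overlapped the intact ones (log2 fold change -0.18, adjusted p = 0.363). A second probe of Hspa4 had means of 523.5 in aged injured and 324 in aged intact cords and another had 206 and 278 (aged injured and aged intact), which is 0.69 and -0.44 as log2 fold changes, so the direction for Hspa4 depends on the probe.

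Genes of the HSP70 class moved in both directions. In aged mice 3 of 9 rose and 4 fell, and in young mice 1 rose and 5 fell, beside the shares of all genes given above. Hspa1b, one of the stress-inducible HSP70s, fell in both ages at this time after injury. Hspa1b gave 106, 92.1 and 90.5 in aged injured cords, against 242, 214 and 263 in aged intact cords, and 174, 185 and 159 in young injured cords, against 188, 293 and 364 in young intact cords. On the log2 scale Hspa1b changed by -1.32 in aged mice (standard error 0.20, adjusted p = 1.15e-04) and -0.66 in young mice (standard error 0.20, adjusted p = 0.0118). The probe of Hspa1a gave lower signals and also fell, with 61.1, 71.5 and 77.1 in aged injured cords, against 140.0, 111 and 127 in aged intact cords, and 82.7, 76.8 and 95.9 in young injured cords, against 115, 126 and 131 in young intact cords. Its log2 fold changes were -0.85 in aged mice (adjusted p = 1.09e-04) and -0.54 in young mice (adjusted p = 0.00276). Hspa12a, a distant HSP70 that is abundant in brain, fell further. The signal of Hspa12a was 52.6, 102 and 71.6 in aged injured cords, against 265, 242 and 254 in aged intact cords, and 101, 152 and 104 in young injured cords, against 318, 308 and 262 in young intact cords. For Hspa12a the log2 fold change was -1.80 in aged mice (standard error 0.22, adjusted p = 2.79e-05) and -1.33 in young mice (standard error 0.22, adjusted p = 3.27e-04). In aged mice it was -1.57 without aged injured replicate 1.

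Hspa8 encodes HSC70, the constitutive HSP70 that also strips clathrin from vesicles, and had the highest signals of the HSP70 probes. Hspa8 measured 4900.4, 5064 and 4697 in aged injured cords, against 4963, 5700.3 and 5219 in aged intact cords, and 4666, 4943 and 5959 in young injured cords, against 6295, 6026 and 5754 in young intact cords. Injured and intact cords overlapped in both ages. The log2 fold change was -0.11 in aged mice (adjusted p = 0.248) and -0.22 in young mice (adjusted p = 0.0394), and the young call ended under 10 of the alternatives, including removal of young injured replicates 1 and 2, young intact replicates 1 and 2 or aged intact replicate 3 (adjusted p of 0.0515 to 0.163). Hspa9, which encodes mortalin, the HSP70 of the mitochondrial matrix, fell slightly and with little spread, by 0.24 on the log2 scale in each age (adjusted p = 0.00353 in aged and 0.0045 in young mice). It had 561, 567 and 561 in aged injured cords, against 679.8, 638 and 679.9 in aged intact cords. With the mean over all its probes, of which 2 have no group mean over 50, Hspa9 had a log2 fold change of -0.50 in aged mice (adjusted p = 0.029) and 0.31 in young mice (adjusted p = 0.166). Hspa2, an HSP70 best known from spermatocytes, was the member of its class that rose in both ages. Hspa2 had signals of 171, 244 and 215 in aged injured cords, against 144, 141 and 139 in aged intact cords, and 225, 275 and 260.4 in young injured cords, against 155, 131 and 127 in young intact cords. The log2 fold change with injury was 0.55 in aged mice (standard error 0.13, adjusted p = 0.00258) and 0.88 in young mice (standard error 0.13, adjusted p = 1.67e-04). Hspa13 and Hspa5 were called higher in aged mice alone, and the call of Hspa13 ended without aged injured replicate 1 (log2 fold change 0.21 with it and 0.15 without, adjusted p = 0.0929 without).

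The 2 HSP90 genes measured moved in opposite directions. Hsp90aa1, the stress-inducible cytosolic HSP90, fell in both ages. Signals of Hsp90aa1 were 2941, 3776 and 3339.9 in aged injured cords, against 4156, 4469 and 4114 in aged intact cords, and 3243, 3949.5 and 3702 in young injured cords, against 4467, 4645 and 4711 in young intact cords. As log2 fold changes this was -0.35 in aged mice (standard error 0.09, adjusted p = 0.00524) and -0.35 in young mice (standard error 0.09, adjusted p = 0.00644). Both calls ended with the mean over all its probes, of which 2 have no group mean over 50 (log2 fold change -0.46 in aged and -0.38 in young mice, adjusted p = 0.129 and 0.223, aged and young), and its other probes over 50 had log2 fold changes of -0.58 and -0.81 in aged and -0.49 and -0.47 in young mice. Hsp90b1, the ER's HSP90, rose in both. Hsp90b1 gave 3535, 2634 and 2469 in aged injured cords, against 2074, 1922 and 1888 in aged intact cords, and 2249, 2387 and 2325 in young injured cords, against 1823, 1958 and 1944 in young intact cords. In aged mice the log2 fold change was 0.54 (standard error 0.11, adjusted p = 0.00102), and in young mice it was 0.28 (standard error 0.11, adjusted p = 0.0399). Without aged injured replicate 1, the highest array, the log2 fold change in aged mice was 0.38. The young call of Hsp90b1 ended when any 1 of the 3 young injured arrays, the 3 young intact arrays or aged intact replicates 2 and 3 was left out (adjusted p of 0.0509 to 0.113).

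Hspa5, BiP, the HSP70 of the ER lumen that carries the ER element shown above, rose in aged mice. The signal of Hspa5 was 3814, 2702 and 2854 in aged injured cords, against 1979.8, 1794 and 2049.9 in aged intact cords, and 2638, 2544 and 2937 in young injured cords, against 2258, 2268 and 2421 in young intact cords. No injured cord overlapped an intact cord of its age. Fitted log2 fold changes were 0.67 in aged mice (standard error 0.12, adjusted p = 3.06e-04) and 0.22 in young mice (standard error 0.12, adjusted p = 0.106). Aged injured replicate 1 was the highest array, and without it the log2 fold change in aged mice was 0.52. Dnajb11, ERdj3, a soluble J-domain partner of BiP, was named after its values were seen. Dnajb11 measured 337, 198 and 239 in aged injured cords, against 129, 129 and 133 in aged intact cords, and 205, 212 and 254 in young injured cords, against 190.1, 170.5 and 187 in young intact cords. Its log2 fold changes were 0.95 in aged mice (standard error 0.16, adjusted p = 2.75e-04) and 0.29 in young mice (standard error 0.16, adjusted p = 0.131). Without aged injured replicate 1 the log2 fold change of Dnajb11 in aged mice was 0.74, and both genes were called higher in young mice too (adjusted p = 0.011 for Hspa5 and 0.0188 for Dnajb11).

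Dnajc3, with the ER element, had log2 fold changes of 0.29 in aged and 0.24 in young mice (adjusted p = 0.00675 and 0.0208, aged and young), and Dnajc10, ERdj5, a J-domain protein that reduces disulfides, had 0.29 and 0.37 (adjusted p = 0.011 and 0.00348, aged and young). Both rose in both ages and were named after their values were seen. Dnajb9, ERdj4, did not rise. It had 739, 841 and 769.8 in aged injured cords, against 935, 920.5 and 951 in aged intact cords, and 834, 839.5 and 796 in young injured cords, against 907, 907 and 919 in young intact cords. Its log2 fold changes were -0.26 in aged mice (adjusted p = 0.00184) and -0.15 in young mice (adjusted p = 0.0417), both called lower, and the young call ended without young injured replicates 1 and 3, any 1 of the 6 intact arrays or aged injured replicate 3 (adjusted p of 0.053 to 0.124).

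Most of the other folding factors of the ER listed rose too in aged mice. Of 12 tested genes of this list, 11 were higher and 1 lower in aged mice and 7 were higher and 0 lower in young mice, with median log2 fold changes of 0.95 and 0.38 (aged and young). Of all genes, 35.6% were higher in aged and 33.9% in young mice. Without aged injured replicate 1, 9 were higher and 1 lower in aged mice and 9 higher and 0 lower in young mice, and the median was 0.71 in aged mice. Sdf2l1, a subunit of the BiP and ERdj3 complex, had group means of 515 in aged injured, 273 in young injured, 128 in aged intact and 156 in young intact cords, with log2 fold changes of 1.97 (adjusted p = 3.2e-06) in aged and 0.80 (adjusted p = 0.002) in young mice. P4hb, a disulfide isomerase, had 1657, 1290, 526 and 541 in the same order, with log2 fold changes of 1.63 and 1.25. Calr, calreticulin, a lectin chaperone, had 1768, 1499, 884 and 1164, with log2 fold changes of 1.00 and 0.36, and its response was called larger in aged mice in the limma fit (difference 0.64, adjusted p = 0.038). This call was not followed under the alternatives, and Calr was also lower in aged intact than in young intact cord, as given below. The gene that fell was Herpud1, which acts in the degradation of ER proteins (log2 fold change -0.49, adjusted p = 0.022, in aged mice). The aged log2 fold changes without aged injured replicate 1 were 1.74 for Sdf2l1, 1.45 for P4hb, 0.95 for Calr and -0.48 for Herpud1. Summed over the list, the signal was 13431, 9964 and 10557 in aged injured cords, against 6263, 6405 and 6545 in aged intact cords, and 9441, 9124 and 10173 in young injured cords, against 7060, 7257 and 7473 in young intact cords.

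Mitochondrial chaperonin genes differed from each other although they share the stretch shown above. Hspd1 fell in both ages. Hspd1 had signals of 1107, 1015 and 969 in aged injured cords, against 1221, 1219 and 1306 in aged intact cords, and 928, 978 and 1044 in young injured cords, against 1254, 1268 and 1364 in young intact cords. On the log2 scale Hspd1 changed by -0.28 in aged mice (standard error 0.07, adjusted p = 0.00344) and -0.40 in young mice (standard error 0.07, adjusted p = 4.70e-04). Signals of Hspe1 were 1128, 931 and 893 in aged injured cords, against 876, 796 and 794 in aged intact cords, and 1075, 882 and 936 in young injured cords, against 999.5, 977 and 881 in young intact cords. The log2 fold change of Hspe1 was 0.25 in aged mice (adjusted p = 0.0412) and 0.02 in young mice (adjusted p = 0.899). The aged call of Hspe1 ended without aged injured replicate 1 (log2 fold change 0.15, adjusted p = 0.147), aged intact replicates 2 and 3, young injured replicate 3 or young intact replicates 1 and 2 (adjusted p of 0.0505 to 0.109 for those 5), and a second probe gave -0.09. Among 11 genes of mitochondrial import and folding, 1 rose and 5 fell in aged mice, beside 35.6% higher and 39.9% lower of all genes. In young mice 1 rose and 6 fell, beside 33.9% higher and 34.1% lower of all genes. The median log2 fold change of this list was -0.03 in aged and -0.28 in young mice, against -0.04 and -0.01 over all genes. Grpel1, the nucleotide exchange factor of mortalin, was among those that fell in both ages (log2 fold change -0.42 in aged and -0.65 in young mice, adjusted p = 0.011 and 0.001, aged and young).

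TRiC folds actin and tubulin, and its genes with a Cct symbol moved little. Of 7 genes tested, 1 rose and 4 fell in aged mice and 0 rose and 5 fell in young mice. Of all genes, 35.6% rose and 39.9% fell in aged mice, and 33.9% rose and 34.1% fell in young mice. No log2 fold change of the 7 genes went beyond -0.46 or 0.23. Cct7 fell most. Cct7 gave 876, 882 and 955 in aged injured cords, against 1232, 1139 and 1149 in aged intact cords, and 845, 911 and 912 in young injured cords, against 1209.8, 1234 and 1234 in young intact cords. For Cct7 the log2 fold change was -0.38 in aged mice (standard error 0.06, adjusted p = 1.59e-04) and -0.46 in young mice (standard error 0.06, adjusted p = 5.35e-05). Cct6a had log2 fold changes of -0.21 in aged and -0.24 in young mice (adjusted p = 0.00741 and 0.00417), and Cct8 of -0.25 and -0.30 (adjusted p = 0.029 and 0.0157). The calls of Cct8 ended without aged injured replicate 3 or any 1 of the 3 aged intact arrays in aged mice and without young injured replicate 3 or young intact replicate 2 in young mice (adjusted p of 0.0601 to 0.118), and with the mean over its probes, of which the other reaches a group mean of 2.57 at most, Cct8 was called higher in aged mice (log2 fold change 1.501, adjusted p = 0.00965) and had 0.43 in young mice (adjusted p = 0.42). Cct5 fell in young mice, with 1175, 1285 and 1229.9 in young injured cords, against 1358, 1428 and 1362 in young intact cords (log2 fold change -0.17, adjusted p = 0.0127), and had 1384, 1375 and 1329.6 in aged injured cords, against 1369, 1356 and 1400.1 in aged intact cords, which overlapped (log2 fold change -0.01, adjusted p = 0.826). Cct2 was called in neither age (log2 fold change -0.05 in aged and -0.11 in young mice, adjusted p = 0.394 and 0.078). The gene that rose was Cct4, in aged mice (log2 fold change 0.23, adjusted p = 0.00213). The fall of 4 TRiC genes in aged mice became 2 without aged injured replicate 3 or any 1 of aged intact replicates 1, 2 and 3, and the 5 of young mice became 3 without young intact replicate 2. A further list of 9 genes held partners of TRiC and also Tcp1, which encodes a subunit of TRiC that the symbol rule left out. Of these 9 genes, 7 fell and 0 rose in aged mice and 6 fell and 1 rose in young mice, beside the same shares of all genes. Pfdn2, a prefoldin subunit that hands clients to TRiC, was on this list, with group means of 248 in aged injured, 269 in young injured, 820 in aged intact and 734 in young intact cords.

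J-domain proteins of types A and B include the main partners of cytosolic HSP70, but also members of other compartments such as Dnajb9 and Dnajb11. Their genes mostly fell: 3 of 4 of type A in each age, and 6 of 7 of type B in aged and 5 of 7 in young mice. Of all genes, 39.9% fell in aged and 34.1% in young mice. Dnaja1 encodes HDJ2, a partner of HSC70. The signal of Dnaja1 was 1136, 1256 and 1094 in aged injured cords, against 1565, 1603 and 1716 in aged intact cords, and 1242, 1262 and 1313 in young injured cords, against 1716, 1728 and 1874 in young intact cords. The log2 fold change with injury was -0.49 in aged mice (standard error 0.07, adjusted p = 6.19e-05) and -0.48 in young mice (standard error 0.07, adjusted p = 1.04e-04). Dnajb1 encodes HSP40, the classical heat-inducible partner of HSP70. Dnajb1 measured 239, 256 and 238 in aged injured cords, against 440.3, 474 and 476 in aged intact cords, and 248, 279.6 and 275 in young injured cords, against 384, 405 and 523 in young intact cords. As log2 fold changes this was -0.92 in aged mice (standard error 0.11, adjusted p = 2.11e-05) and -0.70 in young mice (standard error 0.11, adjusted p = 2.11e-04). Injured and intact cords were separate for both genes in both ages.

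Dnaja4 had 61.4, 96.6 and 74.2 in aged injured cords, against 209, 176 and 209.5 in aged intact cords, and 90.4, 125 and 108 in young injured cords, against 189.6, 178 and 176 in young intact cords. In aged mice the log2 fold change was -1.38 (standard error 0.16, adjusted p = 2.28e-05), and in young mice it was -0.76 (standard error 0.16, adjusted p = 0.00175). Dnajb2, which encodes HSJ1, a J-domain protein abundant in neurons, had 147, 237 and 199 in aged injured cords, against 418, 457 and 471 in aged intact cords, and 230.5, 327 and 277 in young injured cords, against 437, 459 and 401 in young intact cords. Fitted log2 fold changes were -1.23 in aged mice (standard error 0.17, adjusted p = 6.04e-05) and -0.65 in young mice (standard error 0.17, adjusted p = 0.00541). In aged mice these changes were -1.22 and -1.04 without aged injured replicate 1. Dnajb4 and Dnaja2 fell in both ages too, by 0.75 and 0.23 on the log2 scale in aged mice and by 0.39 and 0.30 in young mice.

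Type C J-domain proteins share only the J-domain, and their genes held both the deepest falls and clear rises. In each age 5 of 23 rose (21.7%) and 11 fell (47.8%). Of all genes, 35.6% rose and 39.9% fell in aged mice, and 33.9% rose and 34.1% fell in young mice. Dnajc27, which encodes RBJ, a J-domain protein with a small GTPase domain, and Dnajc6, auxilin, which recruits HSC70 to clathrin-coated vesicles in neurons, fell most. Dnajc27 had signals of 37.0, 124 and 73.2 in aged injured cords, against 416, 404 and 375 in aged intact cords, and 86.6, 112 and 108 in young injured cords, against 354, 352 and 418 in young intact cords. Its log2 fold changes were -2.52 in aged mice (standard error 0.32, adjusted p = 4.42e-05) and -1.88 in young mice (standard error 0.32, adjusted p = 4.63e-04). Signals of Dnajc6 were 102, 389 and 244 in aged injured cords, against 990.2, 997 and 989.5 in aged intact cords, and 284, 464 and 326 in young injured cords, against 987, 1017 and 1048 in young intact cords. On the log2 scale Dnajc6 changed by -2.22 in aged mice (standard error 0.37, adjusted p = 2.55e-04) and -1.54 in young mice (standard error 0.37, adjusted p = 0.00368). Aged injured replicate 1 was the lowest array for both genes, and it also had the lowest neuron marker sum, given above. Without it the log2 fold changes in aged mice were -2.06 for Dnajc27 and -1.69 for Dnajc6. Dnajc21, a protein of ribosome assembly, had log2 fold changes of -1.34 and -1.18 (adjusted p = 5.64e-06 and 2.03e-05, aged and young), and with the mean over all its probes, of which 3 have no group mean over 50, it had -0.47 and -0.58 and was not called (adjusted p = 0.137 and 0.0774, aged and young). Dnajc5, which encodes cysteine string protein, a chaperone of synaptic vesicles, had 462, 619 and 484 in aged injured cords, against 774, 809 and 827 in aged intact cords, and 514, 562 and 504 in young injured cords, against 921, 849 and 861 in young intact cords. For Dnajc5 the log2 fold change was -0.63 in aged mice (standard error 0.10, adjusted p = 1.74e-04) and -0.74 in young mice (standard error 0.10, adjusted p = 9.14e-05). The part of the fall in neuron markers in these values was not tested.

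Among the type C genes that rose were Dnajc17, Dnajc1 and Dnajc13. Dnajc17 gave 632, 536 and 761 in aged injured cords, against 369, 349.8 and 297 in aged intact cords, and 661, 534 and 697 in young injured cords, against 277, 275 and 202 in young intact cords. The log2 fold change with injury was 0.92 in aged mice (standard error 0.16, adjusted p = 4.13e-04) and 1.33 in young mice (standard error 0.16, adjusted p = 4.54e-05). Dnajc1 encodes a J-domain protein of the ER membrane. The signal of Dnajc1 was 249, 216 and 184 in aged injured cords, against 119, 104 and 122 in aged intact cords, and 212, 186 and 209 in young injured cords, against 105, 111 and 108 in young intact cords. As log2 fold changes this was 0.90 in aged mice (standard error 0.11, adjusted p = 3.18e-05) and 0.91 in young mice (standard error 0.11, adjusted p = 4.57e-05). Dnajc13 encodes RME-8, which works with HSC70 on endosomes. Dnajc13 measured 372, 320.2 and 347 in aged injured cords, against 203, 216 and 213 in aged intact cords, and 322, 296 and 327 in young injured cords, against 189.6, 182 and 186 in young intact cords. In aged mice the log2 fold change was 0.72 (standard error 0.07, adjusted p = 7.85e-06), and in young mice it was 0.76 (standard error 0.07, adjusted p = 7.14e-06). With the mean over all its probes, of which the other 2 have no group mean over 50, Dnajc17 was not called (log2 fold change 0.37 in aged and 0.51 in young mice, adjusted p = 0.476 and 0.335, aged and young). Injured and intact cords were separate for these 3 genes in both ages, which adds no support to their calls, since the same arrays picked them. The macrophage and microglia marker sum was 35656 to 41623 in aged injured cords, against 4909 to 5114 in aged intact cords, and 27108 to 35291 in young injured cords, against 2530 to 2823 in young intact cords. Its part in these rises was not tested.

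Regulators and co-chaperones of cytosolic HSP70 and HSP90 moved in both directions, more of them down. Of 19 tested genes of this list, 2 rose, 11 fell and 6 were not called in each age, beside 39.9% lower of all genes in aged and 34.1% in young mice, with median log2 fold changes of -0.38 in aged and -0.34 in young mice, and the genes that rose in both were Fkbp5 and Bag3. Stip1, HOP, which links HSP70 to HSP90, had group means of 158 in aged injured, 177 in young injured, 364 in aged intact and 374 in young intact cords, with log2 fold changes of -1.22 (adjusted p = 1.2e-05) in aged and -1.09 (adjusted p = 4e-05) in young mice. Fkbp4, an immunophilin of HSP90, had 94.8, 107, 174 and 207 in the same order, with log2 fold changes of -0.88 and -0.96. Chordc1 and Ahsa1, further partners of HSP90, fell in both ages as well (-0.51 and -0.38 in aged and -0.73 and -0.50 in young mice, Chordc1 and then Ahsa1).

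**Figure D3:**
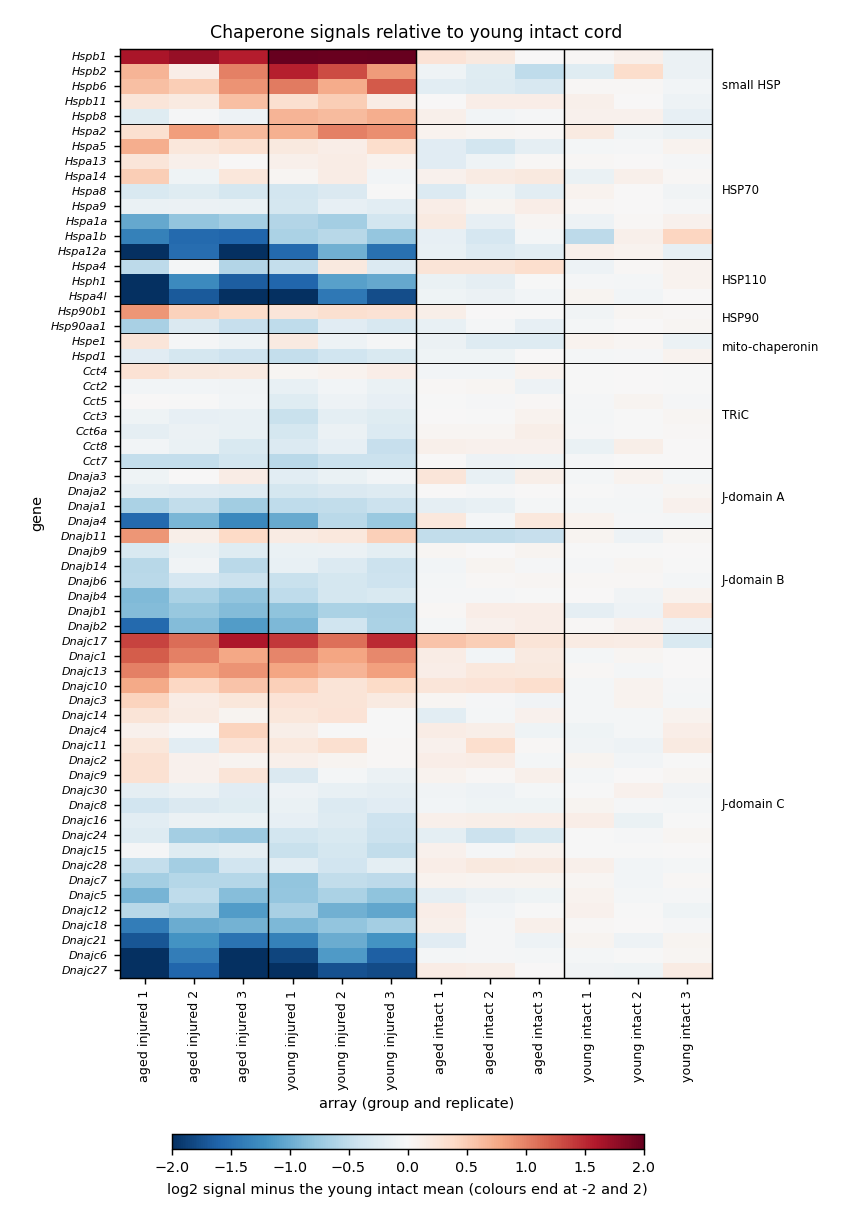
Log2 signal of the 62 chaperone genes tested (rows, grouped by class) on each of 12 arrays (columns), relative to the mean of the 3 young intact arrays of the same gene, with red for higher, blue for lower and colours ending at -2 and 2. The small HSPs at the top and Dnajc17, Dnajc1 and Dnajc13 are red in all 6 injured cords except Hspb8, which is red in young injured cords, and Hsph1, Hspa4l, Dnajc6 and Dnajc27 lie below -2 in aged injured replicate 1.

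Age made a smaller difference than injury. Comparing aged with young injured cord, which asks whether levels in the injured cord differ with age at 9 days, 2 of 62 chaperone genes were higher and 4 lower, beside 4.41% higher and 4.58% lower of all genes. An unadjusted p under 0.05 was found for 19 of the 62 and for 3168 of all 10511 genes tested. The genes lower in aged injured cord were Hspb8, Hspa1b, Hspb1 and Dnajb4, and those higher were Dnajc9 and Dnajc15. For each of the 6 genes, the 3 aged injured and the 3 young injured cords did not overlap. Since the test on these same arrays picked the 6 genes, this describes them and adds no support to the calls. The median log2 fold change of the 62 genes was -0.02, against -0.04 over all genes.

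Hspb8 had a mean of 259.7 ± 20.4 in aged injured and 452 ± 14.5 in young injured cords (SD, n = 3 each), which is -0.80 on the log2 scale (standard error 0.09, adjusted p = 0.00195), and adjusted p values of 2.56e-04 to 0.0583 over 21 alternatives, under 20 of which it stayed called. Its other probes gave -0.72 and -0.50. Hspb1 had 1463 ± 90 in aged injured and 2071 ± 289 in young injured cords (SD, n = 3 each), which is -0.49 on the log2 scale (standard error 0.11, adjusted p = 0.022), and -0.53 by its other probe. Cryab, from the crystallin list, was lower too (log2 fold change -0.49, adjusted p = 0.038). The summed signal of that list was 1591, 2462 and 2244 in aged injured and 2789, 3066 and 2864 in young injured cords, lowest in aged injured replicate 1. Of 9 astrocyte markers, 4 were lower and 0 higher in aged injured than in young injured cord, with summed signals of 12131, 19660 and 18307 in aged injured and 22539, 22365 and 25351 in young injured cords. The part of these markers in the values of Hspb8, Hspb1 and Cryab was not tested.

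Hspa1b had 96.2 ± 8.58 in aged injured and 173 ± 13.1 in young injured cords (SD, n = 3 each), which is -0.85 on the log2 scale (standard error 0.20, adjusted p = 0.0275), with -0.77 and -0.88 by its other probes. The probe of Hspa1a had -0.28 (adjusted p = 0.154). Dnajb4, HLJ1, an inducible partner of HSP70, had 386, 460.5 and 412 in aged injured and 502, 554 and 577 in young injured cords, a difference of -0.38 on the log2 scale (standard error 0.08, adjusted p = 0.0196).

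Dnajc9, a J-domain protein that also chaperones histones, had 309, 264 and 297 in aged injured and 205, 244 and 229.6 in young injured cords, a difference of 0.36 on the log2 scale (standard error 0.08, adjusted p = 0.0272). Proliferation markers were higher in aged injured cord (7 of 9 called, 0 lower), with summed signals of 5636, 3013 and 4263 in aged injured and 2154, 1955 and 2429 in young injured cords, and their part in the value of Dnajc9 was not tested. Dnajc15, a J-domain protein of the mitochondrial inner membrane, had 495, 425 and 443 in aged injured and 371, 393 and 357 in young injured cords, a difference of 0.28 on the log2 scale (standard error 0.07, adjusted p = 0.0349).

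These counts depended on single arrays. Without aged injured replicate 1 the counts were 0 higher and 4 lower, and without aged injured replicate 2 there were 16 lower. Without aged injured replicate 3 or young injured replicate 3 there were 0 higher and 1 lower, without young injured replicate 1 there were 0 higher and 2 lower, and without young injured replicate 2 there were 1 higher and 2 lower. Without any 1 of the 6 intact arrays, 1 gene was higher, and Dnajc15 was called under 8 of 21 alternatives. Calls of Hspa1b and Hspb1 ended without aged injured replicate 3, young injured replicate 1 or young injured replicate 3, that of Hspa1b also without young injured replicate 2 (adjusted p of 0.0562 to 0.0842), and that of Dnajb4 ended without aged injured replicate 3 or young injured replicate 2 or 3 (adjusted p of 0.0523 to 0.0615). The number of all genes called moved too, from 945 of 10511 with all arrays to 3074 of 10569 without aged injured replicate 2. It was 620 and 479 without aged injured replicates 1 and 3, and 297, 296 and 418 without young injured replicates 1, 2 and 3.

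**Figure D4:**
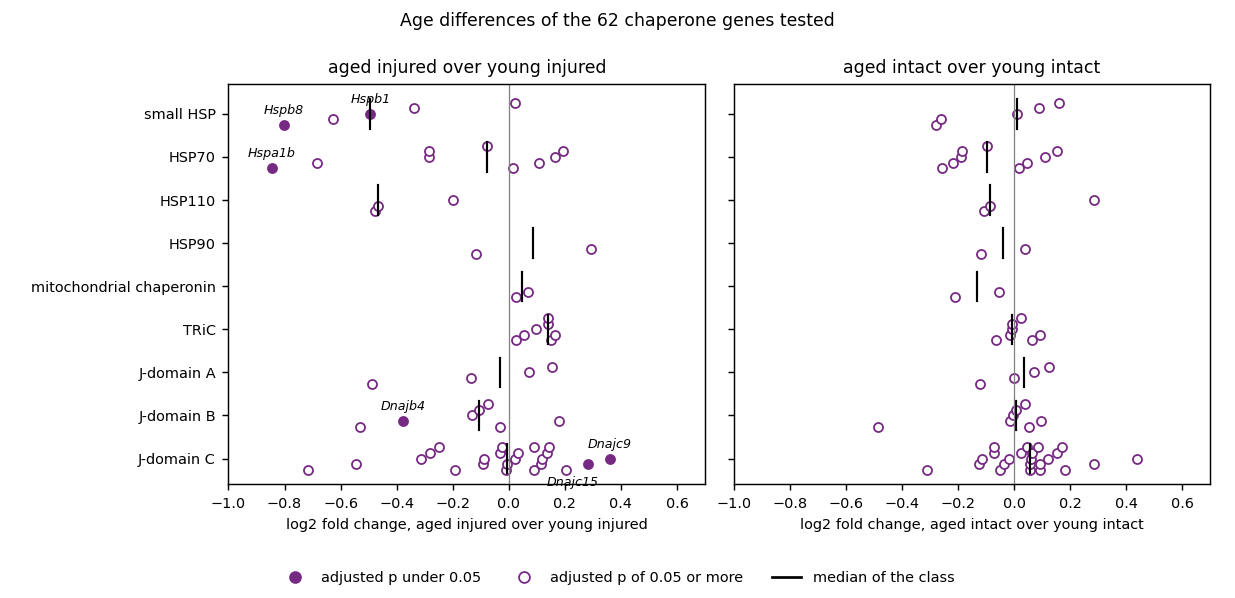
Log2 fold change of signal, aged over young, in injured cord (left panel) and in intact cord (right panel) of the 62 chaperone genes tested (horizontal axes), by class (vertical axis), with filled points and names for an adjusted p under 0.05 and a black bar for the class median. In injured cord 6 genes are filled, from -0.85 for Hspa1b to 0.36 for Dnajc9, and in intact cord none is.

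In intact cord, 0 of 62 chaperone genes were called in aged against young mice by limma, beside 0.542% higher and 0.266% lower of all genes. An unadjusted p under 0.05 was found for 6 of the 62 and for 1073 of all 10511 genes tested. The log2 fold changes ran from -0.48 for Dnajb11 to 0.44 for Dnajc17, with a median of 0.01. Dnajb11 had 129, 129 and 133 in aged intact and 190.1, 170.5 and 187 in young intact cords, which did not overlap (adjusted p = 0.288), and it was called lower without aged injured replicate 1 (adjusted p = 0.0259). Hspa5 had 1979.8, 1794 and 2049.9 in aged intact and 2258, 2268 and 2421 in young intact cords, also without overlap (log2 fold change -0.26, adjusted p = 0.485). Of 12 ER folding partners, 1 was lower in aged intact cord, Calr (log2 fold change -0.40, adjusted p = 0.037). The inducible genes had log2 fold changes of 0.02 for Hspa1a, -0.18 for Hspa1b, -0.11 for Hsph1, 0.10 for Dnajb1 and 0.16 for Hspb1 (adjusted p of 0.723 to 1).

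Whether injury changed a gene differently in the 2 ages was tested as the injury response in aged minus that in young mice. An unadjusted p under 0.05 was found for 12 of 62 chaperone genes and for 1708 of all 10511 genes tested. Of the 62, 0 were called higher and 1 lower, beside 0.133% and 0.304% of all genes. The gene was Hspb8, with a difference of -0.81 (standard error 0.12, adjusted p = 0.0247). This call ended without aged injured replicate 3, young injured replicate 1 or 3, aged intact replicate 1, 2 or 3 or young intact replicate 2 or 3 (adjusted p of 0.054 to 0.0889). Without aged injured replicate 2 there were 4 lower and 1 higher, and 526 of all 10569 genes were called, against 46 with all arrays. For Hspb1 the difference was -0.66 (adjusted p = 0.0957), for Dnajb11 0.66 (adjusted p = 0.202) and for Hspa5 0.45 (adjusted p = 0.221). The 8 genes called with injury in aged mice alone (Cct4, Dnajb11, Dnajb14, Dnajc28, Hspa13, Hspa4, Hspa5 and Hspe1) and the 5 called in young mice alone (Cct5, Dnajc24, Hspa8, Hspb11 and Hspb8) are therefore, except for Hspb8, not shown to differ between the ages.

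The choice of probe bore on several genes. For members called with injury, 53 of 59 other probes with a group mean over 50 in aged mice and 50 of 51 in young mice had the direction of the probe used, and the exceptions were Cct4, Dnaja2, Dnajc16, Hspa4 and Hspe1. Of all 96 other probes of the 53 genes called in either age, 33 had no group mean over 50 and are not in these counts, and for 6 genes, Cct8 and Dnajc17 among them, none of the other probes was over 50. Among the named genes the mean over all probes, low ones included, turned the direction of a call for Cct8, Hspa9 and Hspa4 and ended calls of Dnajc17, Dnajc21, Hsp90aa1, Dnaja2 and Hspe1 in aged mice and of Dnajc17, Dnajc21, Hsp90aa1, Hsp90b1 and Dnaja2 in young mice. The probes used for Hspa8, Cct2 and Cct4 are of a kind, marked x in their name, that can bind related sequences, and those of Hspa12a, Dnaja2, Dnajc2, Dnajc24 and Hspe1, marked s, can bind several transcripts.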

How the data were processed

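Total RNA of Th9 cord from 12 mice was hybridized to 1 Affymetrix mouse genome array each. The authors computed the deposited signal intensity values with MAS 5.0, linear and scaled to a trimmed mean of 100 per array (2% trimmed at each end in the check made here). The platform annotation pairs 34958 of the 45101 probes with a single gene, 932 with more and 9211 with no gene. For the tests, log2 signals of 10511 genes with a group mean over 50 (1 probe per gene, highest mean signal) were fitted with limma 3.58.1 in R 4.3.3, with 1 mean per group, a trend in the spread and no pseudocount, and p-values were adjusted by Benjamini-Hochberg over all 10511 and called under 0.05. The fit was tested on simulated data. A fold against a group mean under 50 takes 50 for that group and is given as a lower bound. Alternatives were quantile normalization, no filter, a mean signal over 100, a pseudocount of 16, no trend, only the arrays compared, array weights, a replicate block, the mean over all probes, the methods' cutoffs and each array left out. Other probes of a gene, and the gene lists without aged injured replicate 1, were alternatives chosen after seeing the data.

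The chaperone genes, the lists and the tests were chosen with earlier results of these data known. Named genes are those called between the ages or in the interaction, the up to 3 largest rises and falls per class among genes called in both ages, and a fixed set of constitutive, inducible and organelle chaperones; others are named as chosen after their values were seen, among them Dnajb11, Dnajb14, Dnajc3, Dnajc10, Dnajc16, Dnajc24, Dnajc28, Hspa13, Hspb11 and Cct4. Precision is limited by the 3 arrays of each group.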

Additional observations from a re-analysis of the deposited data

Results flagged for a closer look

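The injury response of Hspb8 differed between the ages in the interaction term of the limma fit. The log2 response in aged minus that in young mice was -0.81 (standard error 0.12, adjusted p = 0.0247 over 10511 genes). The signal was higher in 3 of 3 young injured cords than in every young intact cord, while aged injured cords (238, 278 and 264) overlapped aged intact cords (302, 272 and 278). The adjusted p ran from 0.00214 to 0.0908 over 20 alternatives, under 10 of which the gene stayed called, and its other probes gave -0.59 and -0.51.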

How the results depend on the processing

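Alternatives changed single calls more often than they turned the direction of a called value. Of 4051 values of named genes under the alternatives, 3903 stayed called in the same direction or stayed uncalled. The call was lost for 109 and gained for 35, and 4 reversed. A reversal was a change of sign of a value called in either fit, and changes of sign among uncalled values were not counted. The reversals came with the mean over all probes of a gene, which gave log2 fold changes of 0.0235 for Hspa4 and 1.501 for Cct8 in aged mice and 0.309 for Hspa9 and 0.428 for Cct8 in young mice. With only the arrays compared in the fit, 0 chaperone genes were called between aged and young injured cord (0 higher and 0 lower) and 4 in intact cord (2 higher and 2 lower). With array weights these counts were 12 (10 lower) and 4 (1 higher and 3 lower), and 5 for the interaction (1 higher and 4 lower). Without the filter on low signals, 1 gene was higher in aged injured than in young injured cord. The methods' cutoffs, a signal over 50 and a ratio over 2, gave 0 genes between the ages in injured cord (0 higher and 0 lower), 11 with injury in aged mice (1 higher and 10 lower) and 10 in young mice (4 higher and 6 lower). The mean over all probes gave 0 genes for the interaction, as did the replicate block, in which Hspb8 had an adjusted p of 0.06004. Of all 10511 genes tested, the main fit called 945 between the ages in injured cord, 85 in intact cord and 46 for the interaction. Array weights called 1774, 692 and 827 in the same order, and the fit of only the arrays compared called 0 in injured and 494 in intact cord.

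The labels number mice 1 to 3 in every group but do not say that a number is shared. Deviations of same-numbered arrays correlated at -0.113 to 0.667 over 18 pairs, with 2 over 0.1. Both were between aged injured and young injured arrays, 0.595 for replicates 1 and 0.667 for replicates 2, with 0.015 for replicates 3. Arrays of different numbers in these 2 groups correlated at -0.628 to 0.323. With 3 arrays per group these values cannot show whether the numbers pair mice of these groups, and the numbers were not taken to pair the mice. The replicate block ended 3 calls of named genes and added 1, and kept every other one of 195.

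With each of the 12 arrays left out in turn, counts ran from 1 to 19 (0 to 3 higher, 1 to 16 lower) between aged and young injured cord, 0 to 1 (0 to 0 higher, 0 to 1 lower) in intact cord, 43 to 48 (13 to 17 higher, 29 to 33 lower) with injury in aged mice, 39 to 48 (9 to 14 higher, 29 to 34 lower) in young mice and 0 to 5 (0 to 1 higher, 0 to 4 lower) for the interaction. Over all genes tested, those called ran from 296 to 3074 between aged and young injured cord, 33 to 216 in intact cord and 7 to 526 for the interaction. With injury they ran from 7465 to 8005 in aged and 6279 to 7605 in young mice. The 3 mice per group and signals near 50 limit the precision, and nothing in the sources used here gives the day or batch of an array.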
